A study of Caenorhabditis elegans with 4 samples.

Results

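The caenacins (cnc genes) and the fungus-induced peptides and their relatives (fip and fipr genes) of Caenorhabditis elegans were chosen by gene symbol alone, as every gene of the deposited table named cnc, fip or fipr followed by a number. There were 47 such genes among the 19912 genes of the table, with 11 cnc, 7 fip and 29 fipr genes. The samples were RNA of whole adults of the wild-type strain N2 (var. Bristol), taken 48 h after the L4 larval stage from agar plates spotted with heat-inactivated E. coli OP50. For 48 h the plates of 2 libraries held 100 nM arsenite and those of 2 control libraries only the solvent, water, and each library was sequenced on a lane of its own. No source used here tells whether replicates came from separate cultures, and the p-values below therefore reflect only how far these samples spread, which could be technical scatter. No fungus was part of the treatment.

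Caenacins and the fip and fipr products are short secreted peptides of the worm's innate immunity. Many caenacins are made in the epidermis, the layer beneath the cuticle, and are related to the antimicrobial peptides of the nlp-29 type. They are best known from infection with the fungus Drechmeria coniospora, which sticks to the cuticle and pierces it. A p38 MAP kinase cascade switches on the nlp-29 type peptides in the infected epidermis, whereas cnc-2 is switched on there through DBL-1, a TGF-beta ligand that neurons release. The fip genes were named for their induction by the fungus, the fipr genes for their likeness to them, and for most of these no function has been assigned.

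The mapped reads behind the deposited RPKM were derived from the counts and RPKM and are not totals that the authors gave. They were 31834460 and 35218389 with arsenite and 33374810 and 30583832 in the controls. The 47 genes held 4485 and 5223 reads in arsenite replicates 1 and 2, and 4629 and 3837 reads in control replicates 1 and 2. Most of the 47 genes gave few or no reads in either group. No read fell on 10 of them in any library, namely cnc-1, cnc-5, cnc-9, fip-7, fipr-14, fipr-18, fipr-19, fipr-20, fipr-25 and fipr-27. For these, 3 reads over all 4 libraries is the limit that a count of 0 allows, which corresponds to 0.054 RPKM for fipr-25, the longest, and 0.178 RPKM for fipr-20, the shortest. RPKM are read counts scaled to the length of the transcript and to the mapped reads of the library, as deposited. Another 23 genes had reads but did not pass the filter on low counts, with at most 18 reads in any library. These were cnc-6, cnc-11, fip-1, fip-3, fip-4 and 18 fipr genes, fipr-3 to fipr-11, fipr-15 to fipr-17, fipr-22 to fipr-24, fipr-26, fipr-28 and fipr-29. The remaining 14 genes could be tested, 6 cnc genes (cnc-2, cnc-3, cnc-4, cnc-7, cnc-8 and cnc-10), 3 fip genes (fip-2, fip-5 and fip-6) and 5 fipr genes (fipr-1, fipr-2, fipr-12, fipr-13 and fipr-21). All 14 had at least 14 reads in every library, so that none was tested only because of reads in the arsenite libraries.

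In level per length, fipr-12 stood far above the other members. Its RPKM was 335 and 321 in arsenite replicates 1 and 2, and 338 and 315 in control replicates 1 and 2. By its mean of 327 RPKM it ranked at place 255 of the 19912 genes of the table. The share of fipr-12 in the reads of all 47 genes was 53.5% (95% Wilson interval 52.1% to 55.0%) in arsenite replicate 1 and 48.7% (47.3% to 50.04%) in arsenite replicate 2. In the controls its share was 54.8% (53.4% to 56.2%) and 56.5% (55.0% to 58.1%). These intervals, like the limit for a count of 0, cover counting error only. The next levels were 37.4 RPKM for fipr-21, at place 3717, and 25.1 RPKM for fip-2, at place 5022, both as means over the 4 libraries. The ranges of these 3 genes over the libraries did not overlap. The 6 tested caenacins followed at a common low level, between a mean of 7.51 RPKM for cnc-7 and 13.8 RPKM for cnc-8, and in the order cnc-8, cnc-4, cnc-2, cnc-3, cnc-10 and cnc-7 each overlapped the next in its range over the libraries. The lowest tested members were fip-6 with a mean of 2.72 RPKM and fipr-13 with 2.56 RPKM.

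**Figure D1:**
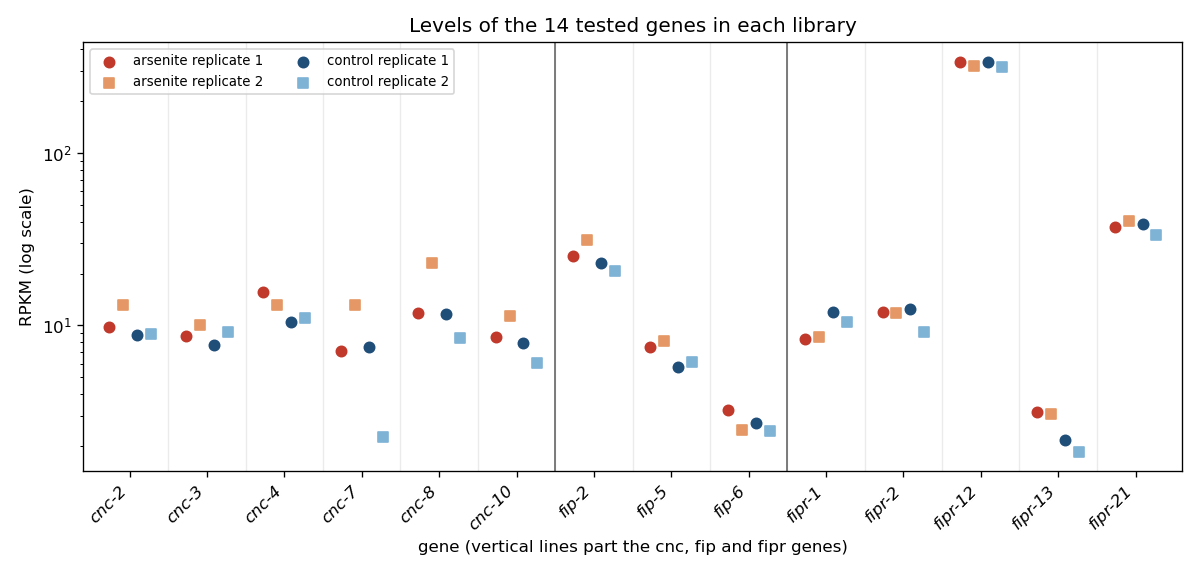
RPKM on a log scale, as deposited, of the 14 genes that could be tested, with 1 point for each of the 2 arsenite and 2 control libraries. The gene fipr-12 lies between 315 and 338 RPKM in all 4 libraries, and the caenacins lie close together with cnc-7 of control replicate 2 lowest among them at 2.24 RPKM.

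The genes are compact and gathered in groups. On the annotation of WBcel235 the 47 genes lie on chromosome V (24 genes), III (9), I (5), IV (5) and X (4), and 31 of them have another member within 5000 bp. In their longest annotated transcript 36 have 2 exons, 9 a single exon and 2 more than 2 exons, and the encoded proteins have 41 to 191 residues with a median of 73. The tested members had transcripts of 204 nt (cnc-7) to 442 nt (fipr-21) by the lengths behind the deposited RPKM, and all 14 belonged to the shortest 10% of the genes tested, which reaches up to 540 nt.

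The question put to these libraries was which genes change their expression with low-dose arsenite. For the caenacins and fungus-induced peptides, the quasi-likelihood (QL) test of edgeR called 0 of the 14 tested genes at an adjusted p under 0.05, as it called 0 of all 13776 genes tested (background 0%). At an unadjusted p under 0.05, 8 of the 14 were higher with arsenite and 1 was lower, beside 2.16% of all genes tested that were higher and 5.05% that were lower. Of the 14 genes 13 had a positive log2 fold change, beside 51.8% of all genes tested. The median of the 14 was 0.42, against a median of 0.0055 over all genes tested. The worms were taken whole, so that more or fewer cells of a type cannot be told apart from more or less RNA per cell. In 9 of the 14 the groups did not overlap, with arsenite higher, beside 17.1% of all genes tested. These were cnc-2, cnc-4, cnc-8, cnc-10, fip-2, fip-5, fipr-12, fipr-13 and fipr-21, the last by less than 1 normalized count, a read count scaled to a common library size. The exact test of edgeR, which called 0.392% of all genes higher and 0.617% lower at an adjusted p under 0.05, called 0 of the 14, as did edgeR's likelihood ratio test and DESeq2. Short transcripts as a class had higher values in the arsenite libraries. Among the 1383 genes that make up the shortest 10% tested, the median log2 fold change was 0.094, and 67.6% had a positive one. At an unadjusted p under 0.05, 12.6% of them were higher and 1.52% were lower. The arsenite pair stood above the control pair in 31% and below it in 10.1%. With a correction for transcript length the median of the 14 was 0.27.

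**Figure D2:**
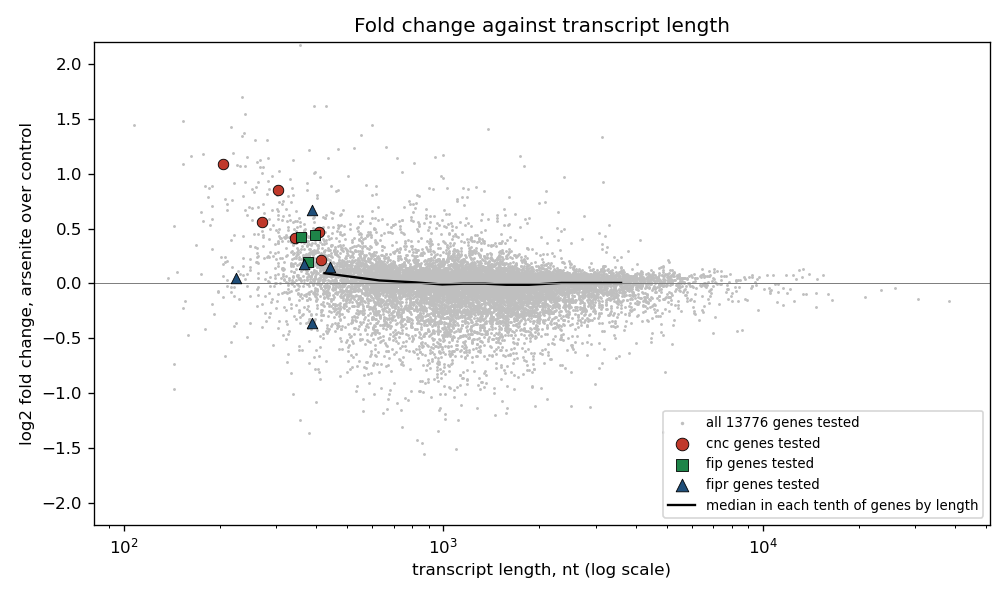
Log2 fold change, arsenite over control, against transcript length in nt on a log scale for all 13776 genes tested (grey), with the tested cnc, fip and fipr genes marked and a line through the median of each 10% of genes by length. The median is 0.094 in the shortest 10% and 0.028 in the next, and the member with the shortest transcript, cnc-7, has the highest fold change of the 14, while fipr-12, the second shortest at 225 nt, lies near 0.

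Among the caenacins, cnc-8 and cnc-7 had the highest fold changes, and in both arsenite replicate 2 was the highest library. Both encode short secreted peptides, and their values are given as normalized counts. The gene cnc-8, on chromosome X from 10306595 to 10306951, had 119 and 236 in arsenite replicates 1 and 2, against 113 and 84.4 in control replicates 1 and 2. Arsenite replicate 2 thus lay well above the other libraries, whereas arsenite replicate 1 lay close to control replicate 1. Its log2 fold change was 0.85 ± 0.29 (SE, 95% interval 0.21 to 1.49, QL adjusted p = 0.496), 1.26 without arsenite replicate 1 (QL adjusted p = 1.11e-06) and 0.26 without arsenite replicate 2 (QL adjusted p = 1). The gene cnc-7, on chromosome V from 20394073 to 20394735 and far from the other caenacins, had 47.5 and 90.8 in arsenite replicates 1 and 2, against 48.6 and 14.96 in control replicates 1 and 2. The groups overlapped, since control replicate 1 was as high as arsenite replicate 1 and the contrast came from a high and a low library. Its log2 fold change of 1.09 ± 0.44 (SE, 95% interval 0.12 to 2.07, QL adjusted p = 0.596) became 0.52 without control replicate 2 (QL adjusted p = 0.562) and 0.54 without arsenite replicate 2 (QL adjusted p = 1). It was 2.21 without control replicate 1 (QL adjusted p = 0.0194) and 1.48 without arsenite replicate 1 (QL adjusted p = 0.000748). In these fits the QL test called 0.863% of all genes higher without control replicate 1 and 0.711% without arsenite replicate 1. It called 0 members without control replicate 2, beside 0.0071% of all genes, and 0 without arsenite replicate 2, beside 0.0426%. Both genes are on the study's own list of changed RNAs, which was drawn up on these samples, so their values are no independent evidence.

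The 3 well-detected caenacins of the chromosome V cluster gave more even values. The gene cnc-4 had 208 and 182 normalized counts in arsenite replicates 1 and 2, against 135 and 146 in control replicates 1 and 2. The groups did not overlap, and here arsenite replicate 1 was the higher of the pair. Its log2 fold change of 0.47 ± 0.14 (SE, 95% interval 0.15 to 0.78) had the smallest p of the 14 genes in the QL test (QL adjusted p = 0.422 and exact test adjusted p = 0.132), and it ran from 0.37 to 0.57 with 1 library left out. For cnc-2, the member known to depend on DBL-1, the normalized counts were 110 and 151 in arsenite replicates 1 and 2, against 96.3 and 100 in control replicates 1 and 2. The groups did not overlap, and the gap between arsenite replicate 1 and the controls was small. Its log2 fold change was 0.41 ± 0.19 (SE, QL adjusted p = 0.692) and 0.17 without arsenite replicate 2. The neighbour cnc-3 had 119 and 140 in arsenite replicates 1 and 2, against 101 and 124 in control replicates 1 and 2. Its groups overlapped, with a log2 fold change of 0.21 ± 0.17 (SE, 95% interval -0.17 to 0.59). It was 0.06 without control replicate 1, 0.36 without control replicate 2, 0.33 without arsenite replicate 1 and 0.08 without arsenite replicate 2. Outside the cluster, cnc-10 on chromosome V had 76.4 and 103 in arsenite replicates 1 and 2, against 67.7 and 53.4 in control replicates 1 and 2. All 4 libraries were spread, with no overlap of the groups, and the log2 fold change was 0.56 ± 0.22 (SE, QL adjusted p = 0.562) and 0.33 without arsenite replicate 2.

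**Figure D3:**
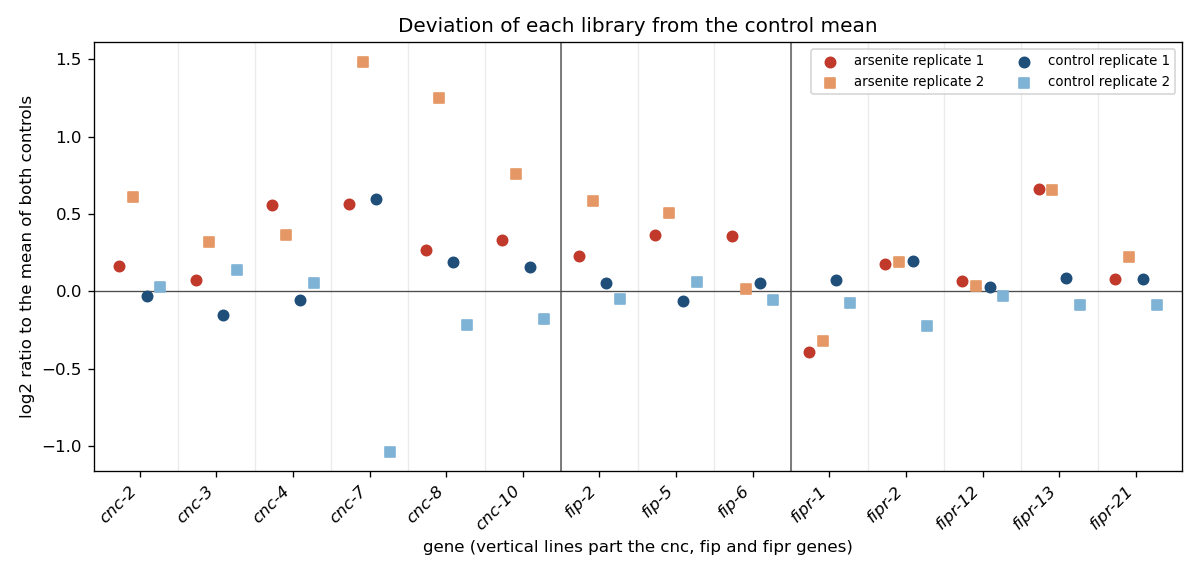
Log2 ratio of the normalized count in each library to the mean of both controls for the 14 tested genes, with a pseudocount of 1. Arsenite replicate 2 is the highest library for 5 of the 6 caenacins, beside 24.5% of all genes tested and 46.9% of the shortest 10%, reaching 1.48 for cnc-7 and 1.25 for cnc-8, and control replicate 2 of cnc-7 lies at -1.04.

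Of the fungus-induced peptides, fip-2 and fip-5 leaned to higher levels with arsenite and fip-6 gave no clear difference. The gene fip-2, on chromosome V from 9067978 to 9068390, had normalized counts of 298 and 381 in arsenite replicates 1 and 2, against 263 and 245 in control replicates 1 and 2. Both arsenite libraries were above both controls, again with arsenite replicate 2 on top. The log2 fold change was 0.42 ± 0.14 (SE, 95% interval 0.12 to 0.73, QL adjusted p = 0.470), 0.59 without arsenite replicate 1 (QL adjusted p = 0.0395) and 0.23 without arsenite replicate 2 (QL adjusted p = 1). Its exons overlap those of T27E4.5 on the opposite strand, which the unstranded libraries do not separate, but T27E4.5 held only 12 and 14 reads in arsenite replicates 1 and 2, against 18 and 11 reads in control replicates 1 and 2. For fip-5 on chromosome X the normalized counts were 98.0 and 108 in arsenite replicates 1 and 2, against 72.5 and 79.1 in control replicates 1 and 2. Its groups stood apart with little spread inside each. The log2 fold change was 0.45 ± 0.17 (SE, 95% interval 0.062 to 0.83, QL adjusted p = 0.562) and lay between 0.37 and 0.51 with any library left out. The gene fip-6 on chromosome I had 40.2 and 31.5 in arsenite replicates 1 and 2, against 32.4 and 29.9 in control replicates 1 and 2. The groups overlapped, and its log2 fold change of 0.19 had a 95% interval from -0.38 to 0.77. It was 0.02 without arsenite replicate 1 and 0.36 without arsenite replicate 2.

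The fipr genes had log2 fold changes on both sides of 0. The abundant fipr-12, on chromosome V from 9943339 to 9943612, had normalized counts of 2478 and 2430 in arsenite replicates 1 and 2, against 2419 and 2318 in control replicates 1 and 2. The gap between the groups was smaller than the spread inside either. Its log2 fold change of 0.05 had the narrowest interval of the 14 genes, from -0.098 to 0.20, and was -0.22 (QL adjusted p = 0.698) with a correction for transcript length. With 1 library left out it ran from 0.02 without control replicate 2 to 0.08 without control replicate 1. For fipr-13, which lies 120909 bp away, the normalized counts were 40.2 and 40.1 in arsenite replicates 1 and 2, against 26.7 and 23.5 in control replicates 1 and 2. Both pairs agreed closely, though on few reads. The log2 fold change was 0.67 ± 0.25 (SE, 95% interval 0.11 to 1.23, QL adjusted p = 0.548).

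The single tested member that leaned to lower levels was fipr-1, on chromosome V from 12361301 to 12361744. Its normalized counts were 106 and 112 in arsenite replicates 1 and 2, against 147 and 133 in control replicates 1 and 2. Both arsenite libraries thus lay below both controls, as they did in 19.1% of all genes tested and 10.1% of the shortest 10%. The log2 fold change was -0.36 ± 0.15 (SE, 95% interval -0.70 to -0.021, QL adjusted p = 0.653), and -0.28 to -0.43 with 1 library left out. Its neighbour fipr-2, 3604 bp away, had 290 and 292 in arsenite replicates 1 and 2, against 294 and 219 in control replicates 1 and 2. The groups overlapped, since only control replicate 2 was low, and the log2 fold change of 0.18 became -0.012 without it. The gene is the only member with 2 transcripts in the table, and its count is their sum. Over all genes the counts summed to 45541614 and 50472338 in arsenite replicates 1 and 2, against 47577505 and 44263387 in control replicates 1 and 2. These sums exceed the derived mapped reads behind the RPKM, so that some reads appear to have been counted more than once. How many of those of fipr-2 were was not tested. The gene fipr-21 on chromosome X had 543 and 599 in arsenite replicates 1 and 2, against 543 and 483 in control replicates 1 and 2. Arsenite replicate 1 and control replicate 1 were level, and the log2 fold change was 0.15 (95% interval -0.073 to 0.38). It ran from 0.07 without control replicate 2 to 0.24 without control replicate 1, and was 0.08 without arsenite replicate 2.

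**Figure D4:**
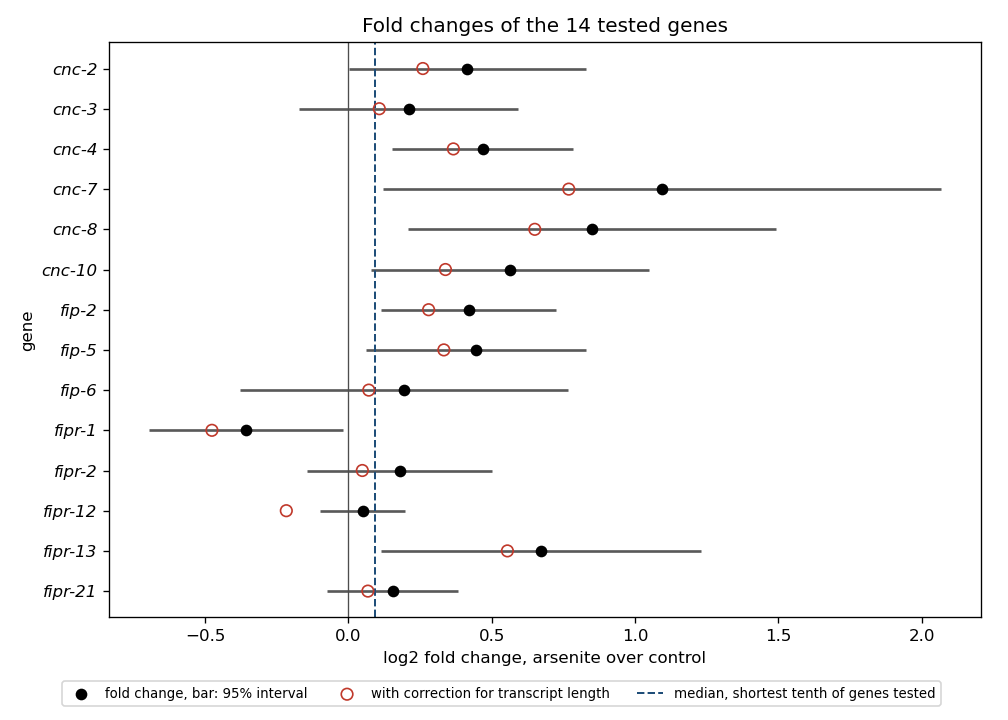
Log2 fold change, arsenite over control, of the 14 tested genes with 95% intervals from the QL fit (black), and the same after a correction for transcript length (open circles). The dashed line marks the median of the shortest 10% of all genes tested, 0.094. The intervals of 8 genes lie above 0 and that of fipr-1 below it, before any adjustment for the number of genes tested.

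Neighbouring members differed in level. On chromosome V, the 6 genes cnc-11, cnc-1, cnc-5, cnc-4, cnc-3 and cnc-2 follow each other within 7842 bp, from 1442342 to 1450183. The first 3 of this row held 5, 0 and 0 reads over all 4 libraries, whereas the last 3 held 671, 484 and 460. Nearly all reads of the cluster thus fell on the 3 genes at its cnc-2 end, with and without arsenite. On chromosome X, fip-5, fipr-21 and cnc-8 lie on the same strand within 4211 bp, from 10302741 to 10306951. Their log2 fold changes of 0.45, 0.15 and 0.85 had overlapping 95% intervals. A difference between these neighbours was not tested. On chromosome V the 6 genes fipr-5, fipr-9, fipr-4, fipr-7, fipr-6 and fipr-8 lie within 18981 bp, from 10220981 to 10239961, and held 3 to 40 reads each over all libraries. Arsenite replicate 2 had 18 reads of fipr-5, 10 of fipr-9 and 7 of fipr-6, against at most 8 reads of fipr-5, 4 of fipr-9 and 2 of fipr-6 in any other library. Of fipr-4 it had 6 reads, against 8 in control replicate 1, and of fipr-8 it had 3, as did control replicate 1. The authors kept uniquely mapped reads only, so that members with near-identical sequence would lose reads. How alike these genes are in sequence was not tested.

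**Figure D5:**
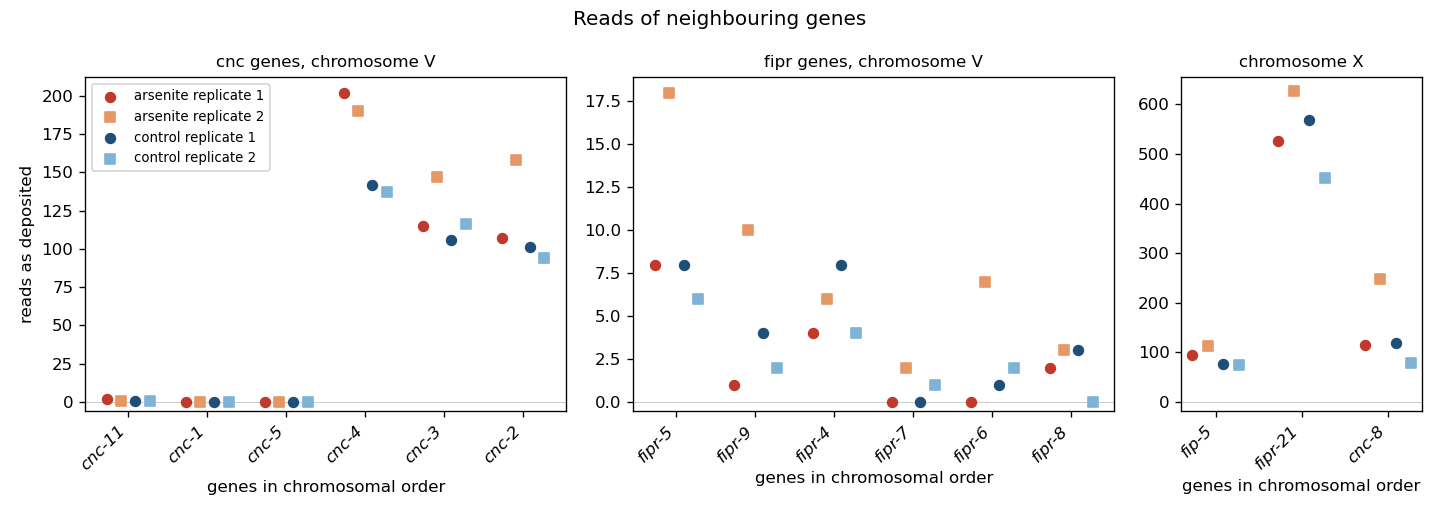
Reads as deposited, on an axis of its own in each panel, for the 6 cnc genes and 6 fipr genes of chromosome V and the 3 genes of chromosome X, in chromosomal order, with 1 point per library. In the cnc row the reads begin at cnc-4, and in the fipr row no gene exceeds 18 reads.

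The members below the filter had their highest sum in arsenite replicate 2. The 23 genes together held 53 and 98 reads in arsenite replicates 1 and 2, against 58 and 44 reads in control replicates 1 and 2. The other 3 libraries lay close together. In 11 of the 23 arsenite replicate 2 had more reads than any of the other 3. These reads are not scaled to depth, and arsenite replicate 2 was the deepest library, with 50472338 counts over all genes. By normalized count, an unlike measure, it was the highest library in 24.5% of all genes tested and 46.9% of the shortest 10%. The most read of them, fipr-5 and fipr-3, had 8 and 5 reads in arsenite replicate 1 and 18 and 15 in arsenite replicate 2, against 8 and 6 reads in control replicate 1 and 6 and 4 in control replicate 2. The exons of fipr-3 overlap those of F23D12.11 and the exons of fip-4 those of smk-1, each on the opposite strand. With 24335 and 25389 reads of smk-1 in arsenite replicates 1 and 2 and 26014 and 21217 reads in control replicates 1 and 2, the 2 to 5 reads assigned to fip-4 per library cannot be told apart from reads of smk-1.

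The genes of the p38 pathway, which switches on nlp-29 type peptides, and of the DBL-1 pathway, which switches on cnc-2, had median log2 fold changes near 0. These are RNA levels, and the activity of the pathways was not tested. Of 16 genes of the epidermal p38 cascade and its partners, the QL and exact tests called 0 at an adjusted p under 0.05. At an unadjusted p under 0.05 the QL test had 0 higher and 1 lower, beside 2.16% and 5.05% of all genes tested. The median log2 fold change of the 16 was -0.06. The gene with the smallest p was vhp-1, a phosphatase that acts on MAP kinases, with normalized counts of 4391 and 4418 in arsenite replicates 1 and 2, against 4907 and 5090 in control replicates 1 and 2 (log2 fold change -0.18 ± 0.06 SE, QL adjusted p = 0.475). Next came tpa-1, a protein kinase C upstream of the cascade, at -0.16 (SE 0.07). Of 9 genes of the DBL-1 pathway, which include the ligand dbl-1, its receptors sma-6 and daf-4 and the Smad sma-3, both tests called 0, with 0 at an unadjusted p under 0.05 and log2 fold changes from -0.14 to 0.023 around a median of -0.03. The lowest of these were sma-4, a Smad, at -0.14 (SE 0.10) and T21D12.9, which RefSeq names sma-10, a membrane protein of the pathway, also at -0.14 (SE 0.07). Of 8 genes whose loss is known to switch on epidermal peptides or mimic cuticle damage, among them furrow collagens, both tests called 0. At an unadjusted p under 0.05, 3 were lower, beside 5.05% of all genes tested. The median log2 fold change of the 8 was -0.16, and 0 of them had a positive one. The lowest was the collagen dpy-8, with normalized counts of 51.6 and 58.3 in arsenite replicates 1 and 2, against 78.2 and 88.7 in control replicates 1 and 2 (log2 fold change -0.60 ± 0.19 SE, QL adjusted p = 0.457). After it came R07G3.6, which RefSeq names osm-8, at -0.31 (SE 0.14). The related peptides of the nlp-29 type are as short as the caenacins, with a median transcript of 339 nt, and 10 of 11 could be tested. Their median log2 fold change was 0.65. At an unadjusted p under 0.05, 7 of 10 were higher, beside 2.16% of all genes tested and 12.6% of the shortest 10%. At an adjusted p under 0.05 the QL test called 0. The exact test called 6 higher, beside 0.392% of all genes tested and 49 of the 1383 shortest. The smallest p in the QL test were those of nlp-31 at 0.64 (SE 0.15) and nlp-27 at 0.75 (SE 0.18). The groups of libraries compared are the same as for the caenacins, so the 2 lists are no independent evidence of each other.

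The 11 markers of the epidermis, where caenacins are made, did not share the higher values of the peptides. Their summed level in CPM, counts scaled to the library total, was 372 and 365 in arsenite replicates 1 and 2. It was 370 and 383 in control replicates 1 and 2. Of the 10 tested, 3 had a positive log2 fold change, beside 51.8% of all genes tested, and the median of the 10 was -0.091. At an unadjusted p under 0.05 the QL test had 4 of the 10 lower and 0 higher, beside 5.05% and 2.16% of all genes tested. The epidermal genes with the smallest p were rol-6, a cuticle collagen, at -0.59 (SE 0.17) and wrt-2, a hedgehog-related protein, at -0.26 (SE 0.07). Every marker of epidermis, intestine, pharynx, body wall muscle, neurons and germline had reads, and of 7 sperm markers 1 had none. The summed level of the intestinal markers was 137535 and 159376 CPM in arsenite replicates 1 and 2, against 126650 and 143749 in control replicates 1 and 2. These sums overlapped, and 5 of the 11 intestinal genes had a positive log2 fold change, with a median of -0.035. At an unadjusted p under 0.05 the QL test had 0 of the 11 higher and 1 lower. Summed levels were lower in both arsenite libraries for 3 lists. Pharynx markers were at 342 and 341 CPM with arsenite, against 394 and 399 CPM in controls. Body wall muscle markers were at 6010 and 5865 CPM with arsenite, against 6256 and 6577 CPM in controls, and neuronal markers at 410 and 397 CPM with arsenite, against 450 and 434 CPM in controls. Of these 3 lists, 0 of 6, 0 of 9 and 1 of 9 genes had a positive log2 fold change. The share over all genes tested was 51.8%. At an unadjusted p under 0.05 the QL test had 3, 1 and 4 genes of these lists lower and 0 higher. The exact test called 2 pharyngeal myosins lower, beside 0.617% of all genes tested. These were myo-2 at -0.33 (exact test adjusted p = 0.00278) and let-75, also known as myo-1, at -0.26 (exact test adjusted p = 0.0316). Germline markers were at 4333 and 4515 CPM in arsenite replicates 1 and 2, against 4034 and 4394 in control replicates 1 and 2. These sums overlapped, while 9 of 9 germline genes had a positive log2 fold change, with a median of 0.063. At an unadjusted p under 0.05 the QL test had 1 of the 9 higher and 0 lower. Sperm markers were at 1.08 and 1.04 CPM in arsenite replicates 1 and 2, against 1.04 and 0.910 CPM in control replicates 1 and 2. The part of tissue shares in the values of the peptides was not tested.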

How the data were processed

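RNA of whole adult worms was sequenced in 4 libraries, 2 arsenite and 2 control. The authors mapped single reads of 76 nt with Bowtie to the genome and an exon junction database, kept those with a unique match and counted them over RefSeq transcripts. CASAVA and the build WBcel235 also stand in the submitters' processing notes. The version of Bowtie is not given in the sources used here. Deposited by the authors were raw read counts and RPKM values for transcripts and genes. A gene's count is the sum over its transcripts. The library kit does not mark strand.

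Gene counts were tested with edgeR 4.0.16 in R 4.3.3 (filterByExpr at a count of at least 10 and a total of at least 15, TMM, glmQLFit, glmQLFTest, condition as the only term, Benjamini-Hochberg adjustment over all 13776 genes tested, threshold 0.05). The biological coefficient of variation was 6.06%. The standard error (SE) was the log2 fold change divided by the root of the F statistic. Normalized counts are counts divided by the effective library size after TMM and brought to the mean of these sizes. The mapped reads of each library were derived from the deposited counts and RPKM and annotated transcript lengths. Transcript lengths were then derived from the counts and RPKM. Loci and exons were taken from the Ensembl annotation of WBcel235, where all 47 genes matched, and names from RefSeq. The scripts were tested on simulated counts. Alternatives were the exact test and the likelihood ratio test of edgeR, DESeq2 1.42.0, other normalizations and filters, robust dispersion, a replicate block, a loess correction for length (span 0.5), the transcript table and fits without each library. Values in every library were given for the 8 members with the smallest p, the 3 with the highest counts of each family and those on the study's list, and cnc-2 was added after its values were seen. From each other list up to 2 genes with the smallest p were named. The members and lists were chosen with earlier results of these data known. Sequence motifs and protein identities, planned at first, were not analysed here.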

Additional observations from a re-analysis of the deposited data

How the results depend on the processing

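No member passed an adjusted p under 0.05 with all 4 libraries under any test, normalization, filter or correction run. With 1 library left out, 0 to 3 members passed, namely 1 (cnc-7) without control replicate 1, 3 (cnc-7, cnc-8 and fip-2) without arsenite replicate 1 and 0 without control replicate 2 or arsenite replicate 2; the lone sample of an arm was then assumed to vary like the other group. Over all genes, 0 passed the quasi-likelihood test, 139 passed by the exact test, 157 by likelihood ratio and 30 by DESeq2, which gave 802 genes no adjusted p. Without a filter on low counts 79 passed, and 2 to 193 with 1 library left out. With the length correction 88 passed the likelihood ratio test, and 134 with the replicate block as well. The members at an unadjusted p under 0.05, counted under alternatives chosen after seeing the data, were 9 of 14, against 4 by DESeq2, 5 with the length correction by either test, 5 with the length correction and the replicate block, and 1 (cnc-4, without arsenite replicate 2) to 8 with 1 library left out. Shares of all genes at an unadjusted p were counted for the main fit only, 2.16% higher and 5.05% lower. The counts of members under the alternatives therefore have no share of all genes beside them. The median log2 fold change of the 14 tested members was 0.42. It was 0.27 with the length correction by either test and 0.26 with the replicate block as well. With 1 library left out it ran from 0.25 over 14 members (without arsenite replicate 2) to 0.55 over 16 (without arsenite replicate 1). The fits without control replicate 1 or control replicate 2 also tested 16 members. Every fit with 16 members kept arsenite replicate 2, the only library with 10 or more reads of any member below the filter. The members added to the 14 thus entered on reads of arsenite replicate 2. Counts of members from these fits, at an adjusted or unadjusted p, are out of 16 and are not directly comparable with the 9 of 14. Likewise the 0.55 is not a median over the same genes as the 0.42. For fipr-12 the log2 fold change turned to -0.22 with the length correction, with and without the replicate block. That of fipr-2 ran from -0.012 without control replicate 2 to 0.41 without control replicate 1. The groups stood apart with arsenite higher in 9 of 14 members, and in 7 when libraries were scaled by size only. The share of all genes beside the 9 was 17.1%, and that beside the 7 was not counted. Same-numbered libraries did not deviate together (Pearson's r = 0.049 across genes, which are not independent replicates), and no source says that a number marks a shared culture. With the replicate number as a block the quasi-likelihood test called 80 genes, 0 of them members, and 9 members at an unadjusted p under 0.05. Over all 14 tested members, 242 of 251 log2 fold changes under an alternative kept the direction and the side of the threshold, 5 reversed (those of fipr-12 and fipr-2) and 4 passed the threshold with 1 library left out. Most of these alternatives refit the same 4 libraries, so the tally is no independent evidence for the values. Low counts limit the precision for fip-6 and fipr-13. For cnc-7 the SE was larger, 0.44, and libraries of the same group differed widely. Its normalized counts were 47.5 and 90.8 in arsenite replicates 1 and 2, against 48.6 and 14.96 in control replicates 1 and 2.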
